A study of Caenorhabditis elegans with 2 samples.

Results

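UNC-62 is the Meis/Prep-family homeodomain protein of the nematode Caenorhabditis elegans, and its binding in embryos was examined here at the genes of the heterochronic pathway. The 8 genes are lin-14, lin-28, lin-29, lin-41, lin-42, lin-46, lin-66 and hbl-1, chosen by name as protein-coding genes of that pathway, out of 19973 annotated protein-coding genes on the nuclear chromosomes. Earlier results of these data were known when they were chosen, so the set is not a blind one. The material was chromatin of whole mixed-stage embryos, of mixed sex and unknown age, from strain OP600, which carries the allele unc119(ed3) and the integrated transgene wgIs600, in which unc-62 is fused to TY1, EGFP and FLAG tags and accompanied by unc119. There was 1 group with 2 biological replicates from separate biosamples, no second condition and no other strain. All peaks are therefore those of a tagged protein in 1 transgenic line. The antibody's target is listed as UNC-62, and the samples are described as ChIP-seq against eGFP-unc-62. The stretch of the fusion that the antibody bound is not stated. Since whole embryos of several stages were pooled, the cells and stages in which a site is occupied are not resolved, and peak lists hold no expression values against which the stage could be checked.

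The heterochronic pathway sets which stage-specific divisions the cells of the worm's larval epidermis make at each larval stage. Early-acting factors (LIN-14, LIN-28, HBL-1) hold cells in early larval programmes until microRNAs of the lin-4 and let-7 families shut them off, and a later step, in which LIN-41 gives way to LIN-29, starts the adult programme. UNC-62 acts with PBC-class partners and Hox proteins in embryonic patterning, and the embryos sampled here precede the larval switches.

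A summit is the base of highest signal in a peak, and the summits counted are those of the authors' list of peaks that passed the irreproducible discovery rate (IDR) step, 2754 peaks on build ce11, of which 2732 are nuclear. The peak signal is the value that the authors' caller gave each peak on the pooled reads of both replicates. It was used only to describe and rank peaks within a list, where rank 1 is the strongest. The authors' replicate lists, which include background for the IDR step, held 21749 peaks in replicate 1 and 30000 in replicate 2. The sources used here give no read depth, so the number of weak sites missed is unknown and a gene without a summit cannot be called unbound.

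UNC-62 summits lay around 6 of the 8 timing genes, at the outermost start of 2 and in introns of 3. Within 10 kb of the gene body, those 6 had 19 summits in all, and lin-29 and lin-46 had none. Of all protein-coding genes 36.8% had a summit in such a span. Only lin-14 and lin-66 had a summit at the gene start (2 of 8), defined as 1000 bp upstream to 500 bp downstream of the outermost annotated start, where 6.18% of all genes had one. In introns of their own, lin-14, lin-28 and lin-42 held summits (3 of 8), against 2.87% of all genes. With 8 genes the exact binomial 95% intervals are wide, 34.9 to 96.8% for the 10 kb span, 3.19 to 65.1% for the start and 8.52 to 75.5% for introns, and they cover counting error over genes only.

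**Figure D1:**
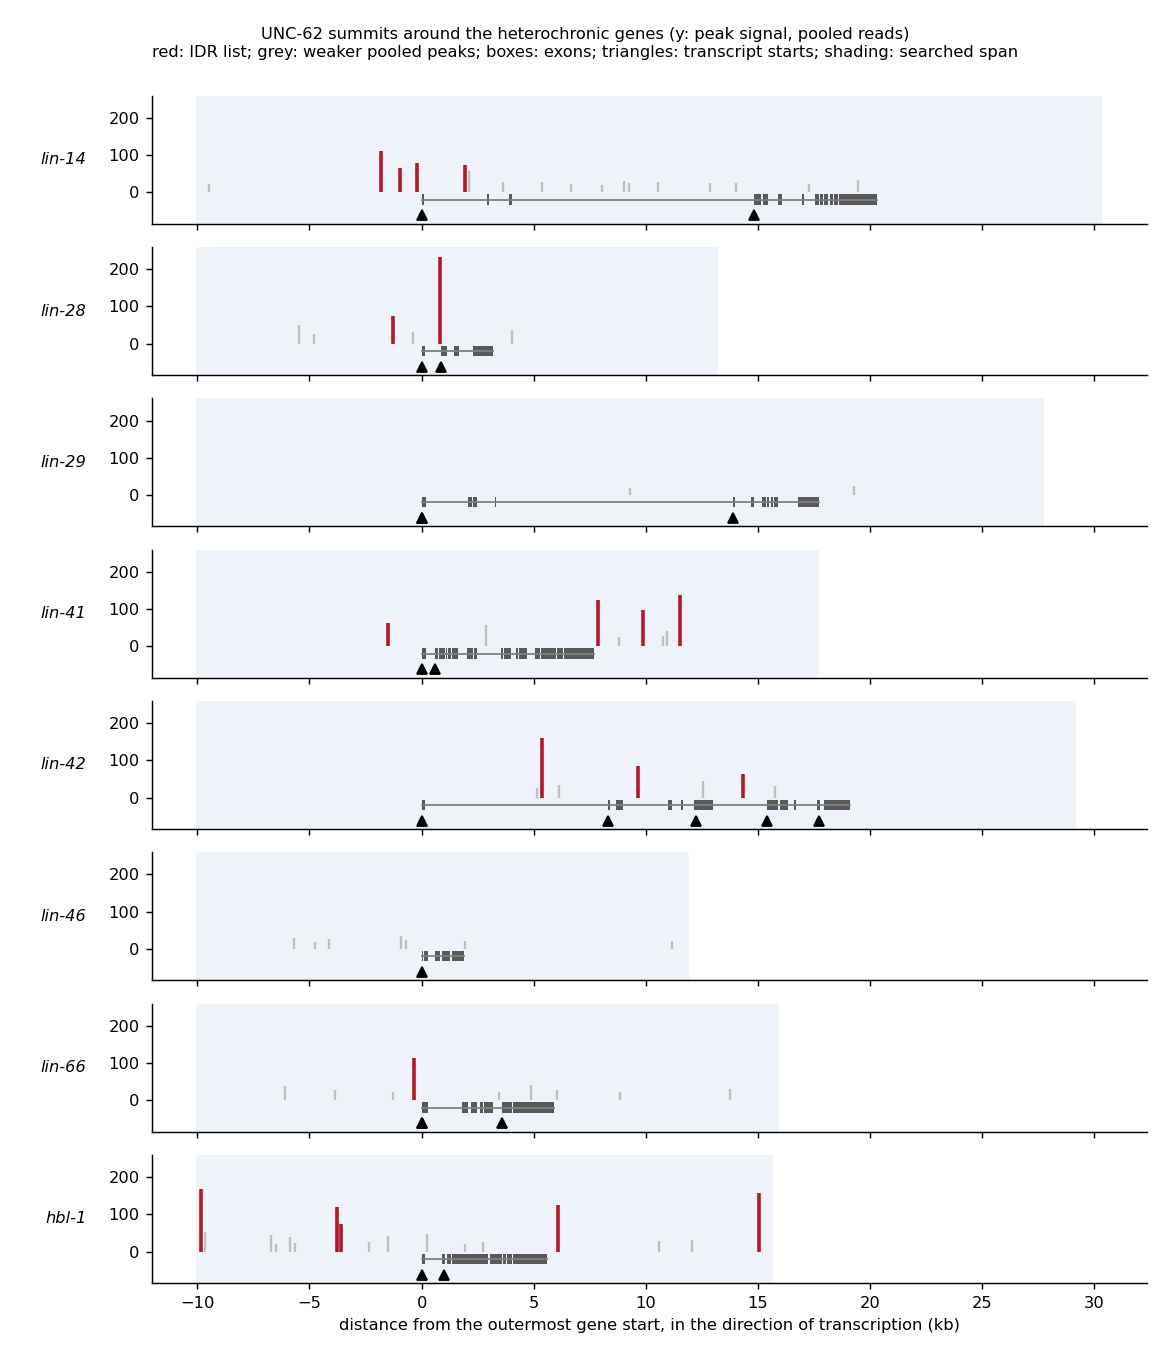
Peak signal (vertical axis, pooled reads) of each UNC-62 peak against the distance of its summit from the outermost gene start in kb (horizontal axis), for the 8 genes, with IDR peaks in red, weaker pooled peaks in grey, exons as boxes and annotated transcript starts as triangles. The 19 red lines stand beside or inside 6 genes, and the lin-29 and lin-46 rows hold grey lines only.

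The number of summits per gene was uneven. It was 5 around hbl-1, 4 around each of lin-14 and lin-41, 3 in lin-42, 2 at lin-28 and 1 at lin-66. For scale, 3 or more summits within 10 kb were found for 4 of the 8 genes (50%) and for 5.24% of all genes, and the median was 2.5 summits for the 8 and 0 for all genes. The timing genes are long, with a median length of 6802 bp against 2027 bp over all genes, and their searched spans were 21.9 to 40.3 kb, against 22.0 kb for a gene of median length. Per length of span the 8 genes held 7.87 summits per 100 kb and the nuclear genome 2.73. Their introns held 8.98 summits per 100 kb, 5 summits in 55.7 kb, against 2.36 over the introns of all genes. These are descriptions of 1 list of peaks and carry no test.

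The peaks that the accounts of lin-14, lin-66, hbl-1 and lin-42 turn on are given here by the 101 bases centred on their summits: the strongest and the start-proximal peak of lin-14, the peak at the lin-66 start, intergenic peaks of hbl-1 with and without a short site, and the strongest and the most GC-rich peak of lin-42. Each is the ce11 sequence from RefSeq assembly WBcel235, 5′ to 3′ on the strand of the gene. Capitals mark a match on either strand to 1 of 6 short sites, of which GAGAGA and the PBC-Hox site TGATTGAT occur here.
lin-14, 1805 bp upstream of the start, chrX:11463705-11463805, + strand: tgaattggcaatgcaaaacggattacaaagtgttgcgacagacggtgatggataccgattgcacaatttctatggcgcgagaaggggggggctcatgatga
lin-14, 209 bp upstream of the start, chrX:11465301-11465401, + strand: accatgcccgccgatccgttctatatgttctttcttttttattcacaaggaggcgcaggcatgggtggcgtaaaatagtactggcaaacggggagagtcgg
lin-66, 352 bp upstream of the start, chrIV:13887677-13887777, + strand: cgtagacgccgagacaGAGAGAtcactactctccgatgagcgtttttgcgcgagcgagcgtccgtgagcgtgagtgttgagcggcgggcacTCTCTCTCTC
hbl-1, 9842 bp upstream of the start, chrX:5812250-5812350, + strand: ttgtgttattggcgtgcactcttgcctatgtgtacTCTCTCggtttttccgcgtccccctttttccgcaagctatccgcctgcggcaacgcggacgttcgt
hbl-1, 3792 bp upstream of the start, chrX:5818300-5818400, + strand: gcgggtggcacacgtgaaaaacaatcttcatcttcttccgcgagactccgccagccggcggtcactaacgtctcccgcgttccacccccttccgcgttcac
hbl-1, 3591 bp upstream of the start, chrX:5818501-5818601, + strand: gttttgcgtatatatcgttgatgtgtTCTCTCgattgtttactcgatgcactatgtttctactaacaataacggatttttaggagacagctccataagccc
hbl-1, 6105 bp downstream of the start, chrX:5828197-5828297, + strand: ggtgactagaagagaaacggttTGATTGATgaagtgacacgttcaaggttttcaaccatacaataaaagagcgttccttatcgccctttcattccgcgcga
lin-42, 5355 bp downstream of the start, chrII:1246954-1247054, - strand: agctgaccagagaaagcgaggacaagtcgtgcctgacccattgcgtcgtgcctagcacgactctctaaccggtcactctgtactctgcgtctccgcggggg
lin-42, 14314 bp downstream of the start, chrII:1237995-1238095, - strand: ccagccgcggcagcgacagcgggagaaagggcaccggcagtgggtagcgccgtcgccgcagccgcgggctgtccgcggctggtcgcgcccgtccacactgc

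Among the early-acting factors, lin-14 carried a row of moderate summits on both sides of its start. This gene (WBGene00003003, X 11465560 to 11485871, forward strand) encodes a nuclear DNA-binding protein of the early larval programme and is the classical target of the lin-4 microRNA. Its 4 summits lay 1805, 959 and 209 bp upstream of the outermost start and 1917 bp downstream of it, in an intron. The signals were 111, 66.0, 79.4 and 72.0 in that order, so the most distal of the upstream peaks was the strongest, and the other 3 fell below the median of the nuclear IDR list, 94.4. All 4 had lin-14 as the nearest gene start, and the 3 upstream ones lay in a gap of 11228 bp to the next gene. A second annotated start, 14801 bp into the gene, had no IDR summit within the window used for starts.

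The 2 summits at the lin-14 start fell on different sides of the cut at the 2754 strongest peaks in the replicates. Their ranks differed less than 3-fold. The summit 1805 bp upstream ranked 1022 in replicate 1 and 938 in replicate 2. The 2 summits inside the start window ranked 2555 and 2233 in replicate 1 and 3218 and 3575 in replicate 2, so in replicate 2 they lay outside the 2754 strongest peaks. The intronic summit ranked 2717 and 1155, but the replicate 2 summit lay 150 bp from it. A weaker pooled peak, 2119 bp downstream of the start, matched the same replicate peaks. Taken on the strongest peaks of replicate 2 alone, lin-14 had no summit at its start and 2 within 10 kb.

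The gene hbl-1, which encodes a hunchback-like zinc finger protein that holds epidermal cells in an early larval programme, had 5 summits within 10 kb. It lies on X (WBGene00001824, 5822142 to 5827755, forward strand) and has 16219 bp of sequence without a protein-coding gene upstream of it. Upstream summits lay 9842, 3792 and 3591 bp from the start, with signals of 167, 119 and 73.2, and downstream ones lay 492 and 9420 bp past the gene's end, with signals of 125 and 157. All 5 were intergenic, and no IDR summit lay at the start or inside the gene.

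The summits 3792 and 3591 bp upstream of hbl-1 are 201 bp apart in overlapping peaks, and both overlapped the same single peak of each replicate, ranked 791 in replicate 1 and 1038 in replicate 2, so the replicate lists did not resolve them as 2 peaks. Counted as 1 they leave 4 around hbl-1, the number at lin-14 and lin-41. The summit 9842 bp upstream ranked 292 and 400. Of the downstream summits, that 492 bp past the gene's end ranked 1123 and 535 and the farther one 694 and 275, so all peaks around hbl-1 were within the strongest 2754 of both replicates. Not all need belong to hbl-1 by position. The nearest starts to 3 of the 5 were those of F13D11.3 (6378 bp), acp-5 (1188 bp) and F13D11.4 (2370 bp), and the farthest downstream summit also lies 4417 bp upstream of puf-9, a Pumilio-family gene of the same pathway whose start is 19450 bp from that of hbl-1. The peak 492 bp past the end of hbl-1 was the only 1 of the 19 with TGATTGAT within 50 bp of its summit, shown above in capitals; within 100 bp a lin-41 summit had it too.

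lin-28 had the strongest of the 19 peaks. The gene (WBGene00003014, reverse strand, 8407630 to 8410804 on chromosome I) encodes an RNA-binding protein with a cold shock domain that blocks maturation of let-7. Its peak at 8409949 to 8410058 had a signal of 234 and ranked 151 of 2754, 183 in replicate 1 and 152 in replicate 2. It was the only 1 of the 19 in the strongest 10% of the list. The replicate lists, whose scales are not comparable, gave it signals of 143 and 89.4. The summit lay 831 bp downstream of the outermost start, in the first intron of the longer model, and 53 bp upstream of the start of the second annotated transcript. Counting any transcript start rather than the outermost 1 therefore added lin-28 and made 3 of 8 genes with a summit at a start, where 6.86% of all genes had one.

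The other lin-28 summit, 1258 bp upstream, was weaker, with a signal of 74.6 and ranks of 2631 and 1128. It lies 360 bp upstream of the neighbouring gene F02E9.7, whose start is nearer.

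The gene lin-46, whose product is related to gephyrin and acts downstream of lin-28 against HBL-1, had no IDR summit within 10 kb (WBGene00003031, V 12968855 to 12970730, forward strand). In the full pooled list, 7 weaker peaks lay in its span, the strongest with a signal of 33.5 and rank 5893 of 17083. That peak and a neighbour lay 912 and 713 bp upstream of lin-46 and overlapped 1 peak of each replicate, ranked 9313 and 8043. Both were nearer to the start of the upstream gene R186.8.

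At lin-66, whose product limits lin-28 after transcription, 1 summit lay 352 bp upstream of the start (WBGene00001562, IV 13888079 to 13893986, forward strand). Its signal was 114 and its ranks were 857 and 966, so it was the summit at a gene start with the highest signal among the 8 genes and was strong in both replicates. The summit sequence above has GAGAGA or its complement near both ends of the window, and its GC content was 60.4%.

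Of the genes of the later switch, lin-41 had its stronger peaks behind the gene. It encodes a TRIM-NHL RNA-binding protein, a target of let-7 that represses lin-29 (WBGene00003026, reverse strand, 9334800 to 9342496 on chromosome I). Summits 186, 2159 and 3839 bp past its end had signals of 124, 96.9 and 139, whereas the single upstream summit, 1507 bp from the start, had a signal of 62.9. The 3 downstream peaks ranked 777, 1355 and 1041 in replicate 1 and 1019, 1372 and 346 in replicate 2. The upstream 1 ranked 1947 and 5098, outside the strongest 2754 of replicate 2. The nearest start to all 3 downstream summits was that of cbl-1, 3104 to 6757 bp away, so the assignment to lin-41 rests on distance from the gene's end. The gap from that end to the next protein-coding gene is 3871 bp, so the farthest summit lies almost at the edge of that gene. The summit 3839 bp past the end was the only 1 of the 19 with the Meis core TGACAG within 50 bp.

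lin-29, which encodes the zinc finger factor that starts the adult epidermal programme, had no IDR summit within 10 kb of its body (WBGene00003015, II 11917642 to 11935343, reverse strand). Its length of 17702 bp, with 15398 bp of intron, and the gap of 13415 bp upstream compare with 20312, 16647 and 11228 bp at lin-14, where 4 summits lay. Its span held only 2 weaker pooled peaks, with signals of 23.6 and 19.2 and ranks of 10797 and 16476, and neither overlapped a peak of replicate 2. No other of the 8 genes had so few weaker peaks. The stronger of those peaks lay past the end of lin-29, 210 bp upstream of vps-15.

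lin-42, the worm gene related to Period of the fly and mammalian clocks, which paces the moulting cycle and timing, held all its summits in introns and none outside the gene (WBGene00018572, II 1233236 to 1252359, reverse strand). They lay 5355, 9672 and 14314 bp from the outermost start, with signals of 159, 84.4 and 64.0. Among all protein-coding genes 0.29% had 3 or more summits in introns of their own. That share takes no account of length. lin-42 spans 19124 bp with 15115 bp of intron, and 1.09% of all genes are longer. The longer gene sea-2 (21764 bp), also of the pathway, had 3 as well. lin-42 has 7 annotated transcripts with 5 starts, and its summits were 2969 bp upstream, 1348 bp downstream and 1076 bp upstream of the nearest of these, so none lay in the start window of any transcript.

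The lin-42 summits were not equally firm. The first ranked 524 in replicate 1 and 389 in replicate 2 and the next 1617 and 1934, while that 14314 bp into the gene ranked 1711 and 15933, a 9.31-fold difference and the largest among the 19. The base composition there also stood apart: 77.2% of the 101 bases printed above are G or C, the highest share at any of the 2732 nuclear summits, where the median was 45.5%. Whether base composition plays a part in the difference between replicates was not tested. Without that summit lin-42 keeps 2 intronic summits, also on the strongest peaks of replicate 2 alone.

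**Figure D2:**
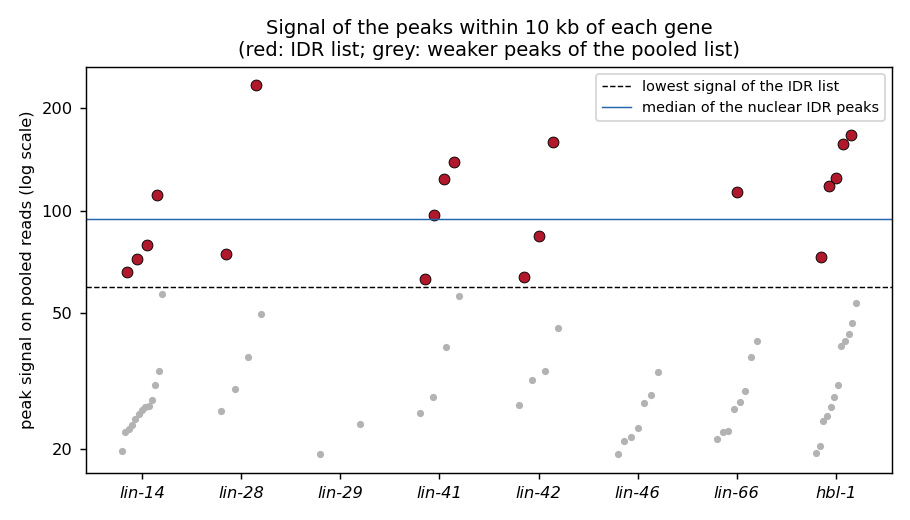
Signal of each peak within 10 kb of the 8 genes on a log scale (vertical axis, pooled reads), with IDR peaks in red and weaker pooled peaks in grey, the dashed line at the lowest IDR signal (59.9) and the blue line at the median of the nuclear IDR peaks (94.4). The lin-28 peak at 234 is the highest, and lin-29 has 2 grey points only.

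Across the 19 summits the signals were of middle size. They ran from 62.9 to 234 with a median of 111, beside a median of 94.4 and a maximum of 973 over the list, and 11 of the 19 exceeded the list's median. By position 14 of the 19 (73.7%) were intergenic and 5 (26.3%) intronic, against 65.8% and 29.5% of all nuclear summits, and none fell in an exon. Of the summits 9 lay upstream of a start, 5 inside genes and 5 past the gene's end, and for 12 of the 19 the timing gene had the nearest start. The 2 genes on X, lin-14 and hbl-1, had 9 of the summits and the 6 on autosomes had 10. On X 49.95% of all protein-coding genes had a summit within 10 kb, and on autosomes 34.7%.

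Both replicates ranked most of these peaks high. Of the 19 summits 15 (78.95%, exact binomial 95% interval 54.4 to 93.95%) were matched by one of the 2754 strongest peaks in each replicate, against 71.0% of all nuclear IDR peaks. All 19 were among the strongest of replicate 1 and 15 among those of replicate 2, beside 89.2% and 80.45% of all. The 4 that missed in replicate 2 were the pair at the lin-14 start, the upstream peak of lin-41 and the GC-rich peak of lin-42, with signals of 62.9 to 79.4. A rank that differed more than 3-fold between replicates was found at 2 of the 19, the GC-rich peak of lin-42 and the farthest peak of lin-41 (3.01-fold, with the stronger rank in replicate 2), and at 14.8% of all. Matching needed only 1 bp of overlap, and the paired hbl-1 summits matched the same replicate peaks. Where the overlap had to cover most of both peaks, 14 of the 19 were matched, against 62.5% of all. With a replicate summit required within 100 bp, 13 were, against 67.1%. The interval treats summits as independent, though several lie at the same gene. Both replicates entered the making of the IDR list, so these shares are not an independent measure of repeatability.

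**Figure D3:**
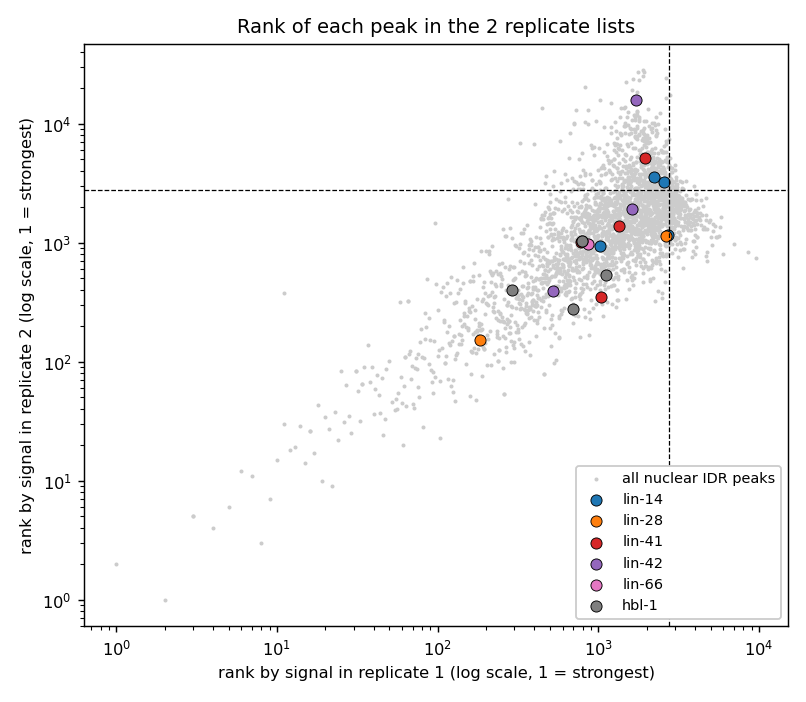
Rank by signal in replicate 1 (horizontal axis) and replicate 2 (vertical axis), both on log scales, for all nuclear IDR peaks matched in both lists (small grey points) and the 19 summits of the timing genes (coloured by gene), with dashed lines at rank 2754. The lin-28 peak sits lowest at 183 and 152, and 4 coloured points lie above the horizontal line, the lin-42 point at 15933 farthest; the lin-41 point at 777 and 1019 lies behind that of hbl-1.

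Short homeodomain sites were found at 2 of the 19 summits. The search covered both strands of the 101 bp around each summit, 50 bp to either side. The Meis core TGACAG was present at 1 of 19 (exact binomial 95% interval 0.133 to 26.0%), against 12.8% of all nuclear IDR summits and 3.40% of windows 500 bp to their sides. The PBC-Hox site TGATTGAT was present at 1 of 19, against 3.4% of all summits. The PBC-Meis site TGATTGAC and the PBC-Hox sites TGATTTAT and TGATTAAT were present at none, where 2.38%, 2.67% and 0.805% of all summits had them. TGATTGAC ends in the first letters of TGACAG, so the sites can overlap. GAGAGA, which is no homeodomain site, was present at 5 of 19, against 31.9% of all summits and 5.82% of flanks. None of the 6 sites was present at 12 of the 19, and 47.25% of all nuclear summits had at least 1. These counts depend on the window: within 100 bp, GAGAGA was present at 11 of 19, all 3 lin-42 summits among them, against 49.3% of all summits, and 6 of 19 had none of the sites, against 33.1%. A match is a run of letters and not a site of contact, and the interval for TGACAG includes the share of the whole list. The GC content of the 19 windows ran from 26.7 to 77.2% with a median of 47.5%, beside a median of 45.5% over all nuclear summits.

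Summits also lay at other protein-coding genes of the pathway. The list of 21 comprised the nuclear receptor and hormone genes daf-12 and daf-9, the DAF-12 cofactor gene din-1, the microRNA machinery genes alg-1, alg-2, ain-1, ain-2, dcr-1 and nhl-2, the RNA-binding and RNA-processing genes pup-2, xrn-2, puf-9 and sea-2, and dre-1, blmp-1, kin-20, mab-10, nhr-23, nhr-25, nhr-85 and lep-2. A summit lay at the start of 5 (23.8%), in an intron of 4 (19.05%) and within 10 kb of 17 (80.95%), beside the 6.18%, 2.87% and 36.8% of all genes given above. The 5 with a summit at the start were nhl-2, a TRIM-NHL cofactor of microRNA complexes (signal 248, 803 bp upstream), puf-9 (220, 301 bp upstream), din-1 (154, 710 bp upstream), the Argonaute gene alg-2 (92.1, 50 bp upstream) and the nuclear receptor gene nhr-23 (68.1, 982 bp upstream). The nhl-2 summit is nearer to tag-340. At nhl-2, daf-9, blmp-1, ain-2, mab-10 and xrn-2, every summit within 10 kb was nearer to the start of another gene. The Argonaute gene alg-1 had a summit 560 bp upstream of an internal transcript start, and the summit at ain-1, 1001 bp upstream, lay 1 bp outside the window. The intronic summits were at kin-20 and sea-2, with 2 and 3, and at daf-12 and nhr-25. These 4 genes are 5472 to 30968 bp long, against a median of 2027 bp over all genes. The shares above take no account of length.

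**Figure D4:**
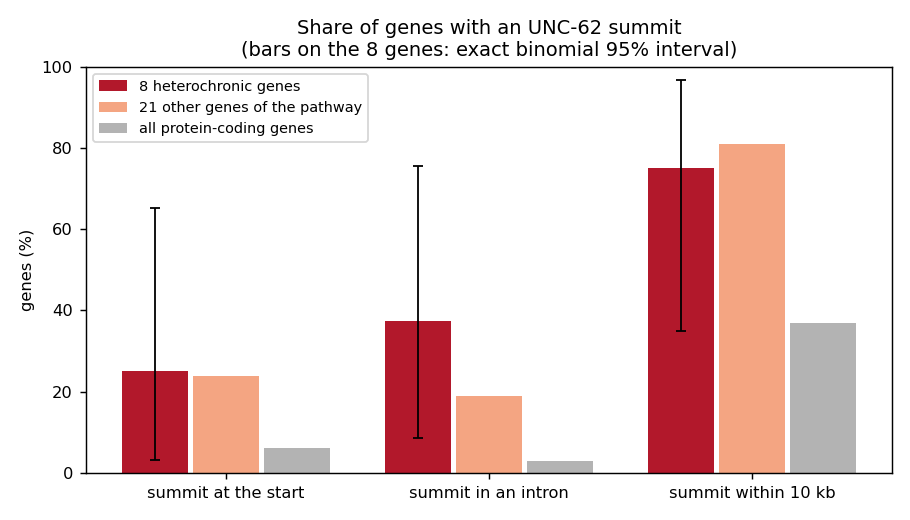
Percent of genes (vertical axis) with an UNC-62 summit at the start, in an intron or within 10 kb, for the 8 heterochronic genes (red, with exact binomial 95% intervals), 21 other genes of the pathway and all 19973 protein-coding genes. The red bars stand at 25%, 37.5% and 75% and the grey ones at 6.18%, 2.87% and 36.8%.

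Around the microRNA genes of the pathway, placed by the RefSeq annotation of the same assembly, summits within 10 kb numbered 3 at let-7 (signals 87.2, 80.3 and 78.85), 1 at lin-4 (61.1) and 1 at mir-237 (76.3), and none lay near mir-48, mir-84 or mir-241. For scale, 36.8% of all protein-coding genes had a summit in such a span, and 49.95% of those on X, where let-7, mir-84 and mir-237 lie. All these signals were below the nuclear IDR median of 94.4, and that at lin-4 was close to the lowest of the list, 59.89.

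Peaks below the IDR list filled in some of the starts. The pooled list held 14329 such peaks, the strongest at 59.88 and the weakest IDR peak at 59.89, so the border between the lists lies in a continuous range. In the spans of the 8 genes 54 weaker peaks lay, 13 at lin-14 and 12 at hbl-1 but 2 at lin-29. Of the 54, 34 overlapped a peak in both replicate lists by at least 1 bp, so 34 is not a count of separate sites. The peaks 2119 bp into lin-14 and 5154 bp into lin-42 matched the same replicate peaks as IDR summits next to them. Several pairs of neighbouring weaker peaks also shared a replicate peak. No count of weaker peaks in such spans was made over all genes, so whether 54 is many is not known. The nearest to the border were a peak in the first intron of lin-14 next to its IDR summit there (56.8), an intronic peak of lin-41 2867 bp into the gene (56.3) and a peak 9639 bp upstream of hbl-1 (53.5). The last of these overlapped the IDR peak 9842 bp upstream of hbl-1 and had the same match in replicate 2, ranked 400. A weaker peak in the first intron of hbl-1, 239 bp downstream of the gene start (signal 46.7), ranked 4770 and 4706 in the replicates. Another, 364 bp upstream of lin-28 (30.0), ranked 5977 and 24860. With the whole pooled list 5 of the 8 genes had a peak at the start, namely lin-14, lin-28, lin-46, lin-66 and hbl-1, against 27.9% of all genes. That list holds background by its makers' description.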

How the data were processed

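Binding of tagged UNC-62 was measured by ChIP-seq, in 1 group of 2 replicates. Per the deposited descriptions, a control went into each list: the authors made 1 list per replicate, 1 from both replicates pooled, and the IDR list from these 3. Aligner, peak caller, IDR threshold and depth: not given in the sources used here. The signal of each peak is the value the authors deposited, and its scale is not comparable between lists. The IDR list equals the 2754 strongest peaks of the pooled list.

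The 4 lists on ce11 were used, with the Ensembl release 115 annotation and the RefSeq sequence of the same assembly. The 4 lists on ce10 were not analysed here. Coordinates are 1-based. A replicate peak matched an IDR peak by overlap of at least 1 bp, and the strongest was taken. An intron is sequence in no exon of any transcript of the gene. Counts carry no test, since there is 1 group, and intervals are exact binomial (scipy 1.17.1) and cover counting error only. The assignment of summits to genes was tested on simulated positions.

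All 8 genes are named. Of the other pathway genes, up to 5 with the strongest summits at starts are named. The genes with intronic summits, alg-1, ain-1, daf-9, blmp-1, ain-2, mab-10 and xrn-2 were named with their summits after their values were seen. The members and lists were chosen with earlier results of these data known. Alternatives were other windows, starts, distances, overlap rules, the stronger part of the list and each replicate alone.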

Additional observations from a re-analysis of the deposited data

How the results depend on the processing

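Counts were recomputed with 1 choice changed at a time and compared with the counts above, and 27 of 37 stayed within 1.5 times. With the window reaching 2000 bp upstream, 4 of the 8 genes had a summit at the start, lin-28 and lin-41 being added, and 8.89% of all genes did. With 500 bp upstream to 200 bp downstream the 8 genes kept 2 with a summit, and the other pathway genes fell from 5 to 2, beside 4.43% of all genes. The stronger 50% of the IDR list left 1 of the 8 with a summit at the start (lin-66), 11 summits within 10 kb and 3 other pathway genes with a summit at the start, where 2.86% of all genes had a summit at the start and 21.4% within 10 kb. Counting only summits whose nearest gene start is that of a timing gene left 12. With replicates taken alone, the genes with a summit at the start numbered 1 to 2, the lower without replicate 1, where lin-14 was lost (5.93% of all genes, and 6.21% without replicate 2). Summits with TGACAG numbered 1 to 2, the higher without replicate 2. The genes with a summit within 10 kb numbered 6, or 7 with 20 kb to each side, where the share of all genes was 55.0%. With sites sought within 100 bp, an alternative chosen after seeing the data, summits with GAGAGA rose from 5 to 11 and those with no site fell from 12 to 6. Unknown depth limits what can be said of weak peaks. These shifts follow from the changed windows and lists. No paired analysis was possible because there is 1 group.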
